A study of Mus musculus with 24 samples.

Results

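The genes of mitosis and chromosome segregation were followed through the first 24 h of CD4 T-cell activation. They were taken as a named list of 50 genes, in 8 groups by role, of the 22009 named genes in the table, and all 50 were found under their own symbols. CD4 T cells of adult wildtype C57BL/6 mice were purified from spleen by negative selection on magnetic beads, from pooled animals, and their RNA was sequenced. The series held 24 libraries. There were 2 libraries of resting, unstimulated cells. There were 18 libraries of cells activated with plate-bound anti-CD3 and soluble anti-CD28, 1 library for each of 3 skewing conditions at 4, 8, 12, 16, 20 and 24 h. Th0 cultures had no further addition, Th1 cultures also had anti-IL-4 and IL-12, and Th2 cultures had IL-4 with antibodies to IFN-γ and IL-12. The remaining 4 libraries were of cells that had been activated for 16 h before being held in actinomycin, which blocks transcription, for 0, 1, 2 or 4 h. Their skewing condition was not given in the labels.

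Cells enter mitosis when the kinase CDK1, bound to a B-type cyclin, becomes active. Kinetochores then attach chromosomes to spindle microtubules, kinesin motors move them, and the spindle checkpoint holds back the anaphase-promoting complex until every chromosome is attached. Most of these genes are transcribed late in the cell cycle, in S and G2 phase, and are kept low in quiescent cells by the DREAM complex, which binds the CHR element in their promoters. Naive T cells are quiescent and divide for the first time only about a day after activation.

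Mapped reads per library ran from 17512385 to 33017133 over all 24 libraries. Levels are given in RPKM, reads scaled by the transcript's length and by the mapped reads of the library, as the authors deposited them. For 17 of the 50 genes the whole reads behind the RPKM could be worked out, and these gave a median of 320 reads per value and a lowest value of 4. Labelled cell type and marker genes were checked first. The 8 CD4 T-cell markers summed to 2168 to 2183 RPKM at rest, and at 24 h to 1465 to 1647 RPKM. Markers of red cells and their precursors (14 genes) summed to 39244 to 42808 RPKM at rest, falling to 145 to 214 RPKM at 24 h. Markers of monocytes and macrophages (13 genes) went from 872 to 888 RPKM at rest to 20.2 to 27.8 RPKM at 24 h, and 10 B-cell markers from 76.9 to 87.1 RPKM to 13.3 to 30.0 RPKM. None of these markers was at 0 in every library of a time point.

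The mitosis genes were high in resting cells, fell for 12 to 16 h after activation, and then rose. The median of the 50 genes stood at 50.02% to 51.8% of the resting mean in the 3 cultures at 4 h, 20.4% to 33.1% at 8 h, 14.3% to 15.4% at 12 h and 13.7% to 20.7% at 16 h. It then went up to 24.7% to 35.5% at 20 h and 45.6% to 63.4% at 24 h. The lowest mean of the 3 cultures fell at 12 h in 28 genes and at 16 h in 11. The ratio of the second resting library to the first lay between 0.646 (Melk, 5.81 and 3.75 RPKM) and 1.11 (Aurka). The next lowest ratios were those of Cdk1 (0.832) and Nuf2 (0.848).

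**Figure D1:**
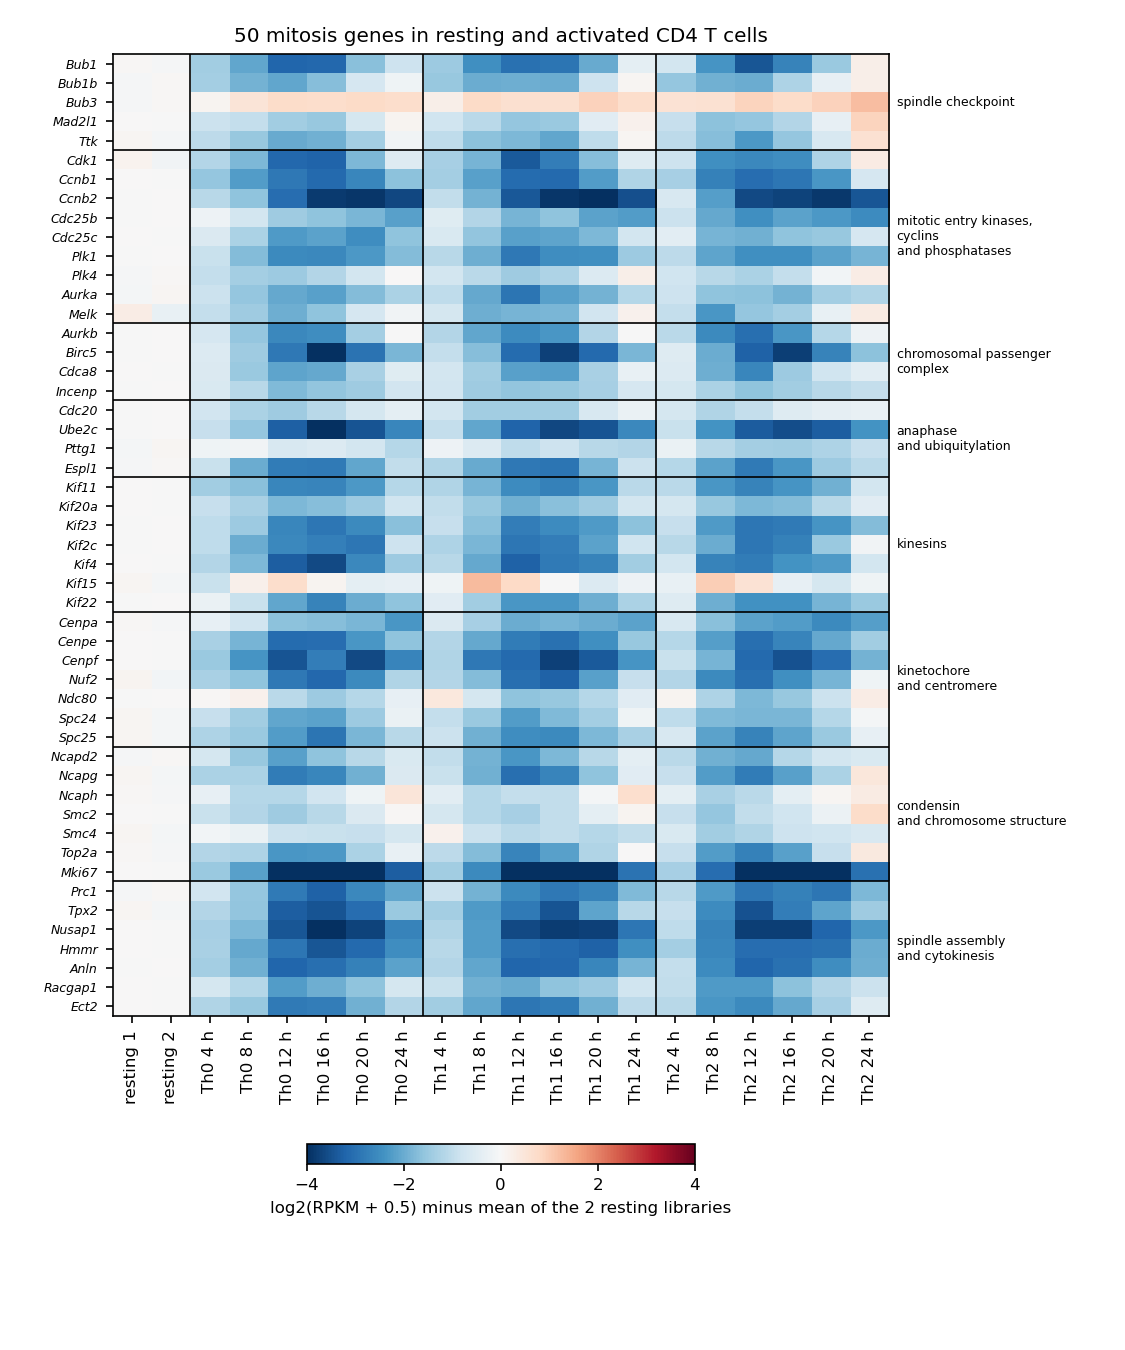
Each row is 1 of the 50 mitosis genes, grouped by role, and each column 1 library; colour gives log2(RPKM + 0.5) minus the mean of the 2 resting libraries. Blue deepens to 12 and 16 h in nearly all rows and fades by 24 h in all 3 skewing conditions, while Bub3 stays above rest and Kif15 turns red at 8 and 12 h.

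Each time point was compared with rest by limma on log2(RPKM + 0.5), with a call at an adjusted p under 0.05 and at least 2-fold. The 3 skewing conditions served as the replicates of a time point, so that the spread includes the differences between them. All 50 genes passed the filter of a mean of at least 1 RPKM over the 20 time-course libraries; 49 would pass over the cultures alone, the exception being Cdc25c. At 4 h, 21 of the 50 genes were lower than at rest, against 7.97% of all 10897 genes tested. At 8 h, 45 were lower (12.5% of all genes), at 12 h 47 (16.4%), at 16 h 44 (14.5%), at 20 h 39 (16.1%) and at 24 h 21 (17.4%). None of the 50 was called higher at any of the 6 times, where 2.61%, 6.42%, 10.7%, 11.2%, 12.9% and 12.7% of all genes were, in order of time. Other settings called 2 genes higher: Kif15 at 8 h (1.09, adjusted p = 0.00218, limma) and 12 h (1.00) under quantile normalization and at 8 h without the Th0 cultures (1.11), and Bub3 at 24 h under median-of-ratios scaling (1.02). The counts at an unadjusted p under 0.05 in either direction were 41, 49, 50, 49, 48 and 33. Counts at an unadjusted p, here and below, are of the list only and are not set against all genes. The median log2 difference of the 50 genes from rest was -0.93 at 4 h, -1.81 at 8 h, -2.51 at 12 h, -2.43 at 16 h, -1.71 at 20 h and -0.85 at 24 h. Over all genes it stayed between -0.07 and -0.01. Quantile normalization moved that median by 0.11 to 0.17 at 4, 8, 12, 16 and 24 h and the all-gene calls at 12 h from 1163 higher and 1787 lower to 1609 and 1409; the mitosis genes then numbered 1 higher and 46 lower of 49 tested. At 4 h the all-gene calls went from 284 higher and 868 lower to 551 and 716, at 8 h from 700 and 1359 to 1076 and 1107, at 16 h from 1219 and 1579 to 1609 and 1353, and at 24 h from 1389 and 1891 to 1864 and 1586. Without the first resting library, 13 genes were called lower at 4 h.

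The fall ran beside the loss of other cells' transcripts, and the later rise did not. The 14 red-cell genes had a median of 47.8% to 61.2% of rest at 4 h, 15.1% to 28.7% at 8 h, 3.55% to 5.50% at 12 h, 0.657% to 1.28% at 16 h and 0.330% to 0.402% at 24 h. The 13 macrophage genes stood at 6.17% to 11.1% at 4 h and 1.20% to 2.09% at 24 h, and the 10 B-cell genes at 48.0% to 63.2% and 12.5% to 25.6%. The 8 T-cell genes kept 67.1% to 86.6% throughout. The part of red-cell precursors and other cells in the resting level of the mitosis genes was not tested, and in bulk RNA fewer cells of a type cannot be told apart from less RNA per cell. The names of the resting libraries carry another number than those of the cultures; what it marks is not given, and it cannot be told apart from activation. With the haemoglobin genes taken out of the RPKM total, 48 genes were lower at 12 h and 33 rose from 12 to 24 h.

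**Figure D2:**
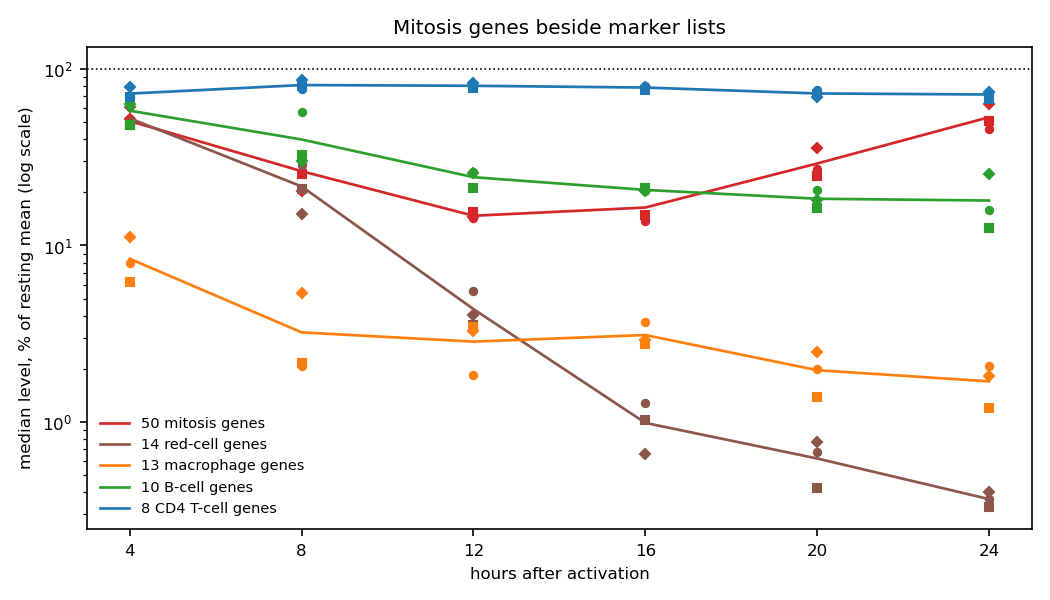
Median level of each gene list as percent of its resting mean (log axis) against hours after activation; circles are Th0, squares Th1 and diamonds Th2 cultures, and lines join the means of the 3. The mitosis genes are lowest at 12 and 16 h, with 14.3% to 15.4% and 13.7% to 20.7% of rest. The Th2 culture is already higher at 16 h (20.7%) than at 12 h (14.5%). By 24 h the mitosis genes stand at 45.6% to 63.4%, while the red-cell genes keep falling to 0.330% to 0.402%.

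From 12 to 24 h, 34 of the 50 genes rose at least 2-fold and none fell, where 3.12% of all genes rose and 1.93% fell; this comparison was chosen after the values had been seen. The median difference was 1.43 on the log2 scale, against -0.02 over all genes, and 44 of the 50 had an unadjusted p under 0.05. In 43 genes all 3 cultures at 24 h were above all 3 at 12 h, as were 19.5% of all genes tested. From 4 to 24 h, with the fall and the rise within the same span, 6 genes were higher (13.0% of all genes) and 10 lower (13.2%). The 6 were Bub1b, Mad2l1, Ttk, Smc2, Top2a and Plk4. The 10 were Ccnb2, Cdc25b, Birc5, Ube2c, Kif22, Cenpa, Cenpf, Mki67, Nusap1 and Hmmr. At 24 h, all 3 cultures stood above both resting libraries in 4 genes (Bub3, Mad2l1, Ncaph and Smc2) and below both in 37. The share of all genes in either position was not worked out, so these counts describe the list only.

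**Figure D3:**
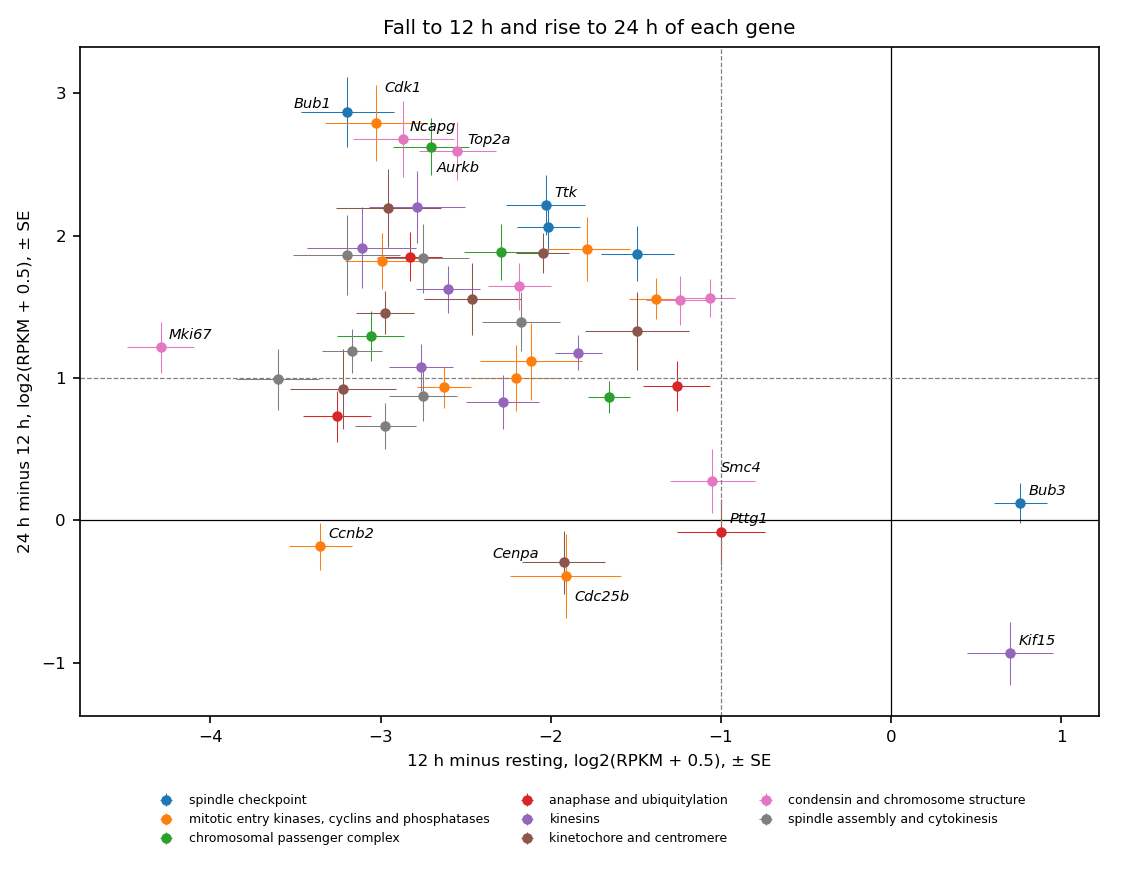
Each point is 1 of the 50 genes, coloured by role: difference from rest at 12 h (horizontal) against difference from 12 to 24 h (vertical), both in log2(RPKM + 0.5) with standard errors; dashed lines mark 2-fold. Most genes lie upper left, low at 12 h and risen by 24 h, while Ccnb2, Cenpa, Cdc25b, Pttg1 and Smc4 lie near or under the zero line of the rise.

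Promoter windows are shown for 5 genes that stand for the different courses: Cdk1 and Bub1, which rose most from 12 to 24 h on the log2(RPKM + 0.5) scale, Mki67, which fell most to 12 h on that scale, and Ccnb2 and Cdc25b, which did not come back. RefSeq gave windows for 43 of the 50 genes on GRCm38.p6. The 250 bases before the annotated start of transcription are printed 5′ to 3′ on the gene's strand. Capitals mark CCAAT boxes (CCAAT, or ATTGG where the box lies on the other strand) and CHR elements (searched as TTTGAA or TTCGAA on both strands).
Cdk1, chr10:69352913-69353162, - strand: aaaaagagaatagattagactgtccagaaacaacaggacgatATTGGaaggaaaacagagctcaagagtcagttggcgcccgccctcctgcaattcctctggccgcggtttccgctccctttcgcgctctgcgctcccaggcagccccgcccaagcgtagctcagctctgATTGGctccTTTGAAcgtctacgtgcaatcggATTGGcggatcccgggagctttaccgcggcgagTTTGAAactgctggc
Bub1, chr2:127831860-127832109, - strand: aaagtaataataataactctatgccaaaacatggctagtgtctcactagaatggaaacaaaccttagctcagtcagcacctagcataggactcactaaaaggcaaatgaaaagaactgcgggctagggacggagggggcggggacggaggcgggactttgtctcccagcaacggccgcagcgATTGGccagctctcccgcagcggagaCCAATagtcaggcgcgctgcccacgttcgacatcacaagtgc
Mki67, chr7:135716380-135716629, - strand: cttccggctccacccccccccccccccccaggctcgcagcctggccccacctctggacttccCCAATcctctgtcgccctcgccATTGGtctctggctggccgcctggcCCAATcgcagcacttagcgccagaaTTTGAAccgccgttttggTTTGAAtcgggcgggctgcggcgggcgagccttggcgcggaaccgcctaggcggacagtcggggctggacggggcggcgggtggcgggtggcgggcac
Ccnb2, chr9:70421555-70421804, - strand: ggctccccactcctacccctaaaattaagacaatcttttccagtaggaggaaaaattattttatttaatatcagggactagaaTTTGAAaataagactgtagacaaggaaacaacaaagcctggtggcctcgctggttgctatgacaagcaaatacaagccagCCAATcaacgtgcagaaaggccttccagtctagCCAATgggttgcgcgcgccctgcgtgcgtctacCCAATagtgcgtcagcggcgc
Cdc25b, chr2:131186698-131186947, + strand: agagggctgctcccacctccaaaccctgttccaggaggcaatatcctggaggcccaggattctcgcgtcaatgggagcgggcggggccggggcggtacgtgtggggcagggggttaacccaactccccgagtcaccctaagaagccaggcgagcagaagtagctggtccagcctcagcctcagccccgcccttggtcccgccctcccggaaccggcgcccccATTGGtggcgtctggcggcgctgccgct
The Cdk1 window held 2 CHR letters and 3 CCAAT boxes and the Mki67 window 2 and 3. The Ccnb2 window held 1 and 3, with CCAAT boxes from 87, 54 and 21 bases before the start. Only CCAAT boxes were found in Bub1, a pair, and in Cdc25b, 1. CHR letters were found before 18 of the 43 genes, and in 17.1% of all 32851 promoter entries. CCAAT boxes were found before 31 of the 43, and in 33.8% of all entries. Both stood before 16 of the 43, and in 6.02% of all entries. The 43 genes had 46 entries, and a gene counted if any of its entries matched, while the shares are of single entries. Of the 29 genes with a window that rose from 12 to 24 h, 11 had CHR letters and 20 a CCAAT box, and of the 14 that did not, 7 and 11. A match is a run of letters and does not show binding. Bases after the start were not searched. Of the 46 windows of these genes, 31 were followed by bases found in a GENCODE transcript of the gene. In the Cdk1 window 26 bases lie in a GENCODE exon, with the CHR letters nearest the start among them.

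Spindle checkpoint genes came back furthest. Of the 5, 4 were called lower at 12 h, 4 rose from 12 to 24 h, and none was lower than rest at 24 h. Bub1, the kinase that recruits checkpoint proteins to kinetochores, had 13 and 12.4 RPKM in the 2 resting libraries. In Th0 cultures it had 4.58, 2.62, 0.96, 1.01, 3.61 and 6.89 RPKM at 4, 8, 12, 16, 20 and 24 h, in Th1 cultures 4.38, 1.92, 1.17, 1.26, 2.77 and 9.62 RPKM, and in Th2 cultures 7.43, 2.07, 0.738, 1.57, 4.26 and 15.1 RPKM. All 3 cultures were at their lowest at 12 h, and only the Th2 culture passed the resting level by 24 h. The rise from 12 to 24 h was 2.87 ± 0.24 on the log2 scale (SE, adjusted p = 3.32e-07, limma). Mad2l1, the inhibitor that binds CDC20, had 24.3 and 23.9 RPKM at rest, then 8.89, 7.95 and 7.98 RPKM in Th0, Th1 and Th2 cultures at 12 h and 25.9, 27.2 and 44.8 RPKM at 24 h. All 3 cultures at 24 h were above rest. Bub1b, which encodes the checkpoint protein BubR1, had 17.4 ± 1.05 RPKM at rest, 3.93 ± 0.172 RPKM at 12 h and 18 ± 2.54 RPKM at 24 h (mean ± SD, n = 2 at rest and n = 3 at each time). Ttk, the MPS1 kinase at the top of the checkpoint, had 3.38 ± 0.294 RPKM at rest, 0.458 ± 0.16 RPKM at 12 h and 4.01 ± 1.26 RPKM at 24 h. Behind its Th2 value at 12 h, 0.295 RPKM, stood 15 reads (95% Poisson interval 0.165 to 0.486 RPKM, counting error only), and behind the Th2 value at 24 h, 5.43 RPKM, 403 reads.

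Bub3, a WD-repeat checkpoint protein that also binds mRNA-processing factors, took the opposite course. It had 39 and 42.2 RPKM at rest, then 43.7, 47.8 and 60.8 RPKM in Th0, Th1 and Th2 cultures at 4 h, 68.2, 63.9 and 75.7 RPKM at 12 h and 66.5, 66.7 and 95.8 RPKM at 24 h. Every culture was above both resting libraries from 4 h on. The differences from rest were 0.76 ± 0.16 and 0.88 ± 0.16 on the log2 scale at 12 and 24 h (limma, adjusted p = 0.000513 and 0.00012), under 2-fold. Bub3 overlaps Fgfr2 on the other strand, and whether reads were counted by strand was not given in the sources used here.

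The group of mitotic entry kinases, cyclins and phosphatases split. All 9 were called lower at 12 h, 6 rose from 12 to 24 h, and 6 were still lower than rest at 24 h. Cdk1, the kinase that drives entry into mitosis, had 39.6 and 32.9 RPKM at rest. It had 15.7, 10.1, 3.68, 3.43, 9.92 and 25.2 RPKM at 4, 8, 12, 16, 20 and 24 h in Th0 cultures, 14.1, 9.59, 3.07, 4.85, 10.8 and 25.1 RPKM in Th1 cultures and 20.1, 6.14, 5.59, 6.09, 15 and 45.1 RPKM in Th2 cultures. The rise from 12 to 24 h was 2.79 ± 0.27 (log2, adjusted p = 1.25e-06, limma), and at 24 h the Th2 culture alone was above both resting libraries. Plk4, the kinase that licenses centriole duplication, had 13.1 and 14.1 RPKM at rest, then 4.61, 4.77 and 5.42 RPKM in Th0, Th1 and Th2 cultures at 12 h and 13.6, 16 and 16.9 RPKM at 24 h. Its 3 cultures at 24 h were all above those at 12 h, and the Th1 and Th2 cultures were above both resting libraries.

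The B-type cyclins, which activate CDK1, went apart. Ccnb1 had 28.5 and 27.3 RPKM at rest, then 3.45, 2.83 and 2.96 RPKM in Th0, Th1 and Th2 cultures at 12 h and 8.61, 11.7 and 17.5 RPKM at 24 h. Ccnb2 had 30.7 and 30.7 RPKM at rest, then 14, 15.4 and 19.6 RPKM at 4 h, 3.26, 2.48 and 2.04 RPKM at 12 h, 1.6, 1.34 and 1.66 RPKM at 20 h and 1.98, 2.21 and 2.38 RPKM at 24 h. Ccnb1 rose by 1.82 ± 0.20 on the log2 scale between 12 and 24 h (adjusted p = 4.68e-06, limma), and the Ccnb2 difference was -0.18 ± 0.17 (adjusted p = 0.476). At 24 h the Ccnb2 difference from rest was -3.54 ± 0.19 (adjusted p = 9.72e-11), the lowest of the 50.

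Cdc25b, a phosphatase that activates CDK1, was lowest at the end of the time course. It had 60.4 and 61.1 RPKM at rest, then 52.5, 36.6, 22.3, 19.4, 16.6 and 13.2 RPKM from 4 to 24 h in Th0 cultures, 43.4, 26.9, 16.5, 19.7, 13.5 and 12.5 RPKM in Th1 cultures and 33.5, 14.2, 10.6, 13.3, 12.1 and 10.3 RPKM in Th2 cultures. Each of the 3 cultures was lowest at 24 h, and Th1 and Th2 cultures had a small upturn from 12 to 16 h on the way. Its paralogue Cdc25c had 2.87 ± 0.0348 RPKM at rest, 0.28 ± 0.091 RPKM at 12 h and 1.25 ± 0.555 RPKM at 24 h and was near the filter. Cdc25b overlaps Spef1, and Cdc25c overlaps Gm3550, on the other strand. Plk1, the polo-like kinase of spindle assembly and mitotic exit, had 13.4 ± 0.212 RPKM at rest, 1.77 ± 0.325 RPKM at 12 h and 3.83 ± 0.63 RPKM at 24 h. Aurka, the centrosome kinase Aurora A, had 16.6 ± 1.25 RPKM at rest, 3.43 ± 1.58 RPKM at 12 h and 6.9 ± 0.356 RPKM at 24 h. Melk, a kinase of the AMPK family, had 4.78 ± 1.45 RPKM at rest, 1.01 ± 0.24 RPKM at 12 h and 5.18 ± 0.91 RPKM at 24 h. Among these, Plk1 and Aurka were called lower than rest at 24 h and Melk was not.

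All 4 genes of the chromosomal passenger complex, which corrects wrong attachments and drives cytokinesis, were lower at 12 h, and 3 rose at least 2-fold by 24 h. Aurkb, its kinase Aurora B, had 17.6 and 17.8 RPKM at rest, then 2.58, 2.67 and 1.73 RPKM in Th0, Th1 and Th2 cultures at 12 h and 17.4, 17.4 and 15.4 RPKM at 24 h. At 24 h all 3 cultures were below the resting libraries. Its rise from 12 h was 2.62 ± 0.20 (log2, adjusted p = 1.22e-07, limma). Cdca8, borealin, had 29.8 and 28.7 RPKM at rest, then 6.37, 6.17 and 4.4 RPKM at 12 h and 20.6, 23.8 and 21.6 RPKM at 24 h, with all 3 cultures at 24 h below rest. Birc5, survivin, had 41.9 ± 0.77 RPKM at rest, 4.62 ± 0.687 RPKM at 12 h and 12 ± 0.90 RPKM at 24 h, and its lowest mean, 2.35 ± 0.525 RPKM, at 16 h. It was the 1 gene of this group called lower than rest at 24 h (log2 -1.76 ± 0.20, adjusted p = 1.36e-06, limma). Incenp, the scaffold, had 23.9 ± 0.00543 RPKM at rest, 7.24 ± 0.518 RPKM at 12 h and 13.6 ± 1.41 RPKM at 24 h, a rise of 0.87 ± 0.11 from 12 h that did not reach 2-fold.

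Of the 4 genes of anaphase and ubiquitylation, 3 were called lower at 12 h and 1, Espl1, rose at least 2-fold by 24 h. Cdc20, the activator of the anaphase-promoting complex, had 18.3 and 18.9 RPKM at rest, then 6.58, 6.84 and 9.26 RPKM in Th0, Th1 and Th2 cultures at 12 h and 14.1, 15.4 and 15.1 RPKM at 24 h. The rise was 0.95 ± 0.18 (log2, adjusted p = 0.00113, limma), just under 2-fold. Pttg1, securin, which holds separase inactive, had 32.8 and 36.5 RPKM at rest, then 30.4, 30.0 and 28.9 RPKM at 4 h, 22.1, 16.9 and 13.3 RPKM at 12 h and 15.3, 15.2 and 17.9 RPKM at 24 h. The Th0 and Th1 values at 24 h were below those at 12 h and the Th2 value above it. Espl1, separase itself, had 5.74 ± 0.237 RPKM at rest, 0.379 ± 0.0129 RPKM at 12 h and 2.67 ± 0.222 RPKM at 24 h. Ube2c, the ubiquitin-conjugating enzyme of the anaphase-promoting complex, had 45.8 ± 1.12 RPKM at rest, 4.35 ± 0.212 RPKM at 12 h and 7.55 ± 0.617 RPKM at 24 h and stayed low, with a difference from rest of -2.53 ± 0.20 at 24 h (adjusted p = 2.05e-08, limma). Cdc20 overlaps Elovl1 and Ube2c overlaps Tnnc2 on the other strand.

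Of the 7 kinesins, motors of the mitotic spindle, 6 were lower at 12 h and 5 rose at least 2-fold by 24 h. Kif11, the motor Eg5 that pushes spindle poles apart, had 18.7 and 17.9 RPKM at rest, then 2.57, 2.8 and 2.44 RPKM in Th0, Th1 and Th2 cultures at 12 h and 8.04, 8.48 and 10.8 RPKM at 24 h. Kif20a, needed for cytokinesis, had 11.6 and 11.3 RPKM at rest, then 2.92, 2.65 and 2.96 RPKM at 12 h and 6.39, 6.64 and 8.28 RPKM at 24 h. In both, the cultures at 24 h lay above those at 12 h and below rest. Kif2c, a microtubule depolymerase at centromeres, had 8.31 ± 0.163 RPKM at rest, 0.782 ± 0.16 RPKM at 12 h and 5.51 ± 1.65 RPKM at 24 h. Kif4, which helps organise chromosome arms and the midzone, had 9.26 ± 0.0561 RPKM at rest, 0.645 ± 0.228 RPKM at 12 h and 3.87 ± 1.25 RPKM at 24 h. Kif23, of the centralspindlin complex, had 13.2 ± 0.341 RPKM at rest, 1.53 ± 0.199 RPKM at 12 h and 3.76 ± 0.119 RPKM at 24 h, and Kif22, a chromosome-arm motor, 18.4 ± 0.389 RPKM at rest, 3.4 ± 0.494 RPKM at 12 h and 6.45 ± 0.909 RPKM at 24 h. Both Kif23 and Kif22 were still called lower than rest at 24 h, and so was Kif4. Kif20a overlaps Cdc23, Kif4 overlaps Pdzd11 and Kif22 overlaps Gm31749 on the other strand.

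Kif15, a motor that backs up Eg5, peaked when the others were low. It had 8.65 and 7.73 RPKM at rest, then 4.16, 9.43, 13.7, 8.93, 6.14 and 6.43 RPKM from 4 to 24 h in Th0 cultures, 7.21, 20.2, 14.7, 8.06, 5.41 and 7.0 RPKM in Th1 cultures and 6.63, 16.5, 12.5, 6.36, 4.79 and 7.2 RPKM in Th2 cultures. The peak was at 8 h in Th1 and Th2 cultures and at 12 h in Th0 cultures. At 12 h its difference from rest was 0.70 ± 0.25 on the log2 scale (adjusted p = 0.0229, limma), under 2-fold, and from 12 to 24 h it dropped to 6.43, 7.0 and 7.2 RPKM, a difference of -0.94 ± 0.22 (adjusted p = 0.00722).

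**Figure D4:**
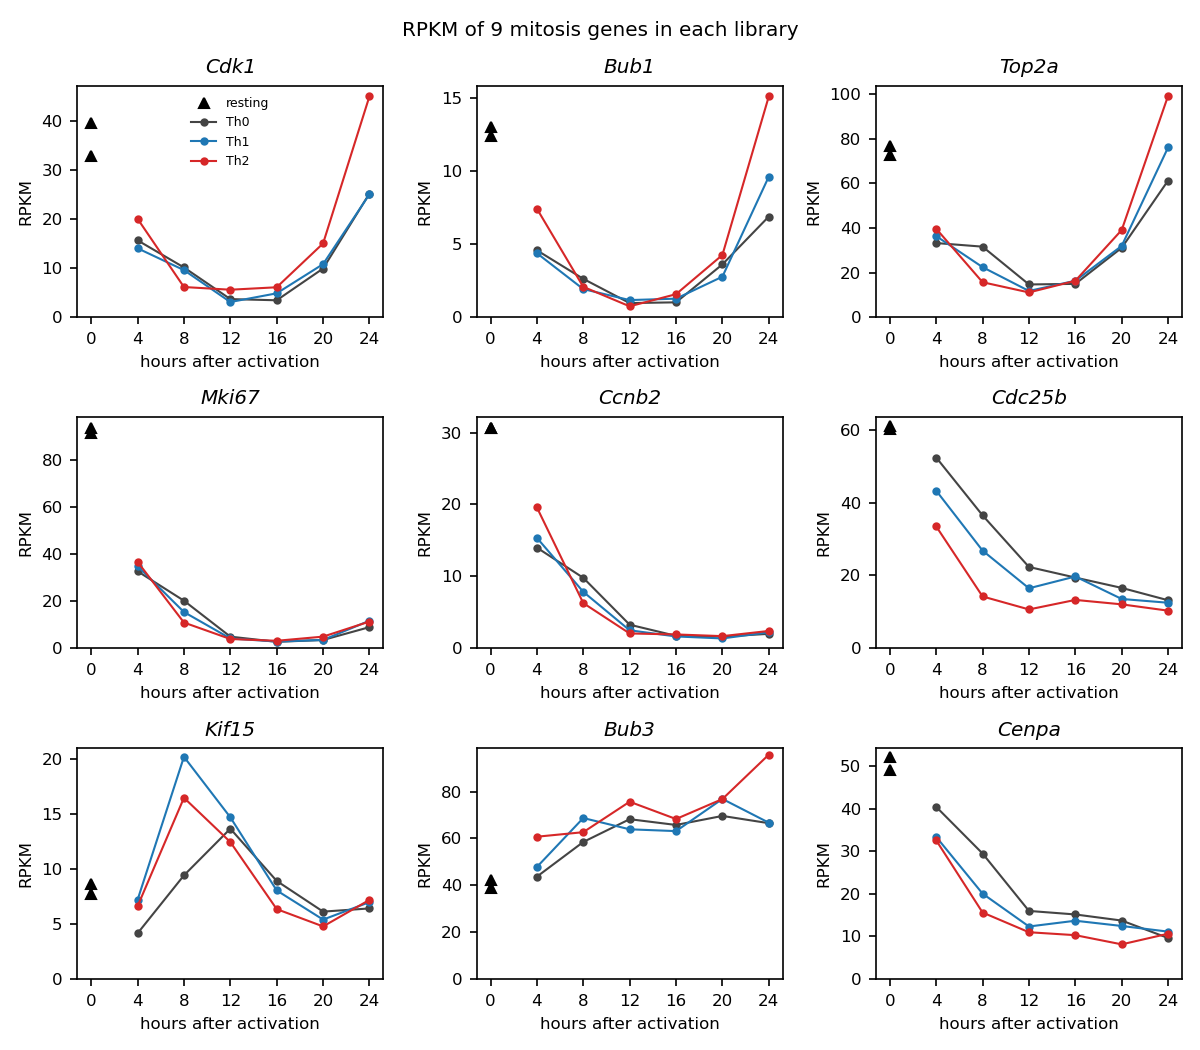
RPKM (vertical, from 0) of 9 genes against hours after activation, with the 2 resting libraries as triangles at 0 h and 1 line for each skewing condition. Cdk1, Bub1 and Top2a dip at 12 to 16 h and climb by 24 h, highest in Th2 cultures. Mki67, Ccnb2, Cdc25b and Cenpa stay far below rest, with a partial rise of Mki67 from 16 to 24 h. Kif15 peaks at 8 to 12 h and Bub3 rises.

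All 7 kinetochore and centromere genes were lower at 12 h, 5 rose at least 2-fold by 24 h, and 3 (Cenpa, Cenpe and Cenpf) were lower than rest at 24 h. Cenpa, the histone H3 variant that marks centromeres, had 52.1 and 49.1 RPKM at rest, then 40.4, 33.4 and 32.6 RPKM in Th0, Th1 and Th2 cultures at 4 h, 16, 12.3 and 11 RPKM at 12 h and 9.64, 11.1 and 10.6 RPKM at 24 h. It did not turn upward: the difference from 12 to 24 h was -0.30 ± 0.22 (log2, adjusted p = 0.368, limma). The NDC80 complex, which grips microtubules, has 4 subunits, all on the list. Spc25 had 19.6 and 17.2 RPKM at rest, then 3.54, 2.89 and 2.44 RPKM at 12 h and 8.3, 7.14 and 14.6 RPKM at 24 h, with the Th2 culture highest. Nuf2 had 12.6 ± 1.47 RPKM at rest, 1.19 ± 0.111 RPKM at 12 h and 7.57 ± 3.14 RPKM at 24 h and Spc24 9.66 ± 0.661 RPKM at rest, 1.97 ± 0.336 RPKM at 12 h and 8.53 ± 0.585 RPKM at 24 h. Ndc80 itself had 10.6 and 11 RPKM at rest, then 11.2, 14.5 and 11.7 RPKM at 4 h, at or above rest, before 4.91, 3.23 and 2.72 RPKM at 12 h and 8.55, 7.77 and 13.3 RPKM at 24 h. The 4 subunits rose together after 12 h, by 1.55 ± 0.25 (Spc25), 2.19 ± 0.28 (Nuf2), 1.88 ± 0.14 (Spc24) and 1.33 ± 0.27 (Ndc80) on the log2 scale. Cenpe, a kinetochore motor, had 8.29 ± 0.063 RPKM at rest, 0.624 ± 0.12 RPKM at 12 h and 2.58 ± 0.247 RPKM at 24 h, and Cenpf, a large outer kinetochore protein, 9.57 ± 0.156 RPKM at rest, 0.586 ± 0.147 RPKM at 12 h and 1.59 ± 0.559 RPKM at 24 h.

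All 7 condensin and chromosome structure genes were lower at 12 h and 6 of them rose at least 2-fold. Top2a, the topoisomerase that untangles sister chromatids, had 76.9 and 72.9 RPKM at rest, then 14.6, 11.7 and 11.1 RPKM in Th0, Th1 and Th2 cultures at 12 h, 14.9, 16.3 and 16.3 RPKM at 16 h, 31.1, 31.9 and 39.1 RPKM at 20 h and 61.2, 76.1 and 99.3 RPKM at 24 h. In RPKM the 3 cultures differed most at 24 h, the Th2 culture standing above both resting libraries and the Th0 culture below both. On the log2 scale the Th2 and Th0 cultures differed most at 8 h, in the opposite direction. At 8 h Top2a had 31.6, 22.4 and 15.6 RPKM in Th0, Th1 and Th2 cultures. The log2 difference of Th2 from Th0 was -0.99 at 8 h and 0.69 at 24 h. Smc4, a core subunit of condensin, was the most abundant of the 50 genes, with 358 and 327 RPKM at rest, then 189, 160.0 and 148 RPKM at 12 h and 209, 174 and 219.6 RPKM at 24 h. Its partner Smc2 had 35.6 and 34.6 RPKM at rest, then 12.8, 13.7 and 17.5 RPKM at 12 h and 35.9, 38.3 and 59.2 RPKM at 24 h, above rest in all 3 cultures. From 12 to 24 h Smc2 rose by 1.54 ± 0.18 on the log2 scale (adjusted p = 8.00e-06, limma), and the Smc4 difference was 0.28 ± 0.22 (adjusted p = 0.414). The Smc4 gene holds Mir15b and Mir16-2 on the same strand.

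The non-SMC subunits of condensin I were also lower at 12 h and rose by 24 h, but to other levels than Smc2. At 24 h the Th2 culture was the highest for Ncapg, as for Smc2, and the lowest for Ncaph and Ncapd2. Ncapd2 was below both resting libraries in all 3 cultures at 24 h. Ncapg had 16.1 ± 1.13 RPKM at rest, 1.78 ± 0.188 RPKM at 12 h and 14.9 ± 6.54 RPKM at 24 h, Ncaph 13.5 ± 0.47 RPKM at rest, 6.21 ± 0.473 RPKM at 12 h and 19.4 ± 2.25 RPKM at 24 h and Ncapd2 28.9 ± 1.15 RPKM at rest, 5.98 ± 0.641 RPKM at 12 h and 19.7 ± 1.73 RPKM at 24 h. Ncaph at 24 h stood above rest by 0.49 ± 0.15 on the log2 scale (adjusted p = 0.00827, limma), under 2-fold. Ncapg overlaps Lcorl on the other strand. Mki67, the Ki-67 antigen that coats mitotic chromosomes and marks cycling cells, had the largest fall at 12 h on the log2(RPKM + 0.5) scale; in RPKM, Anln stood at 4.19% of its resting mean and Mki67 at 4.61%. It had 94 and 91.8 RPKM at rest, then 32.8, 20.2, 4.87, 2.67, 3.45 and 8.93 RPKM from 4 to 24 h in Th0 cultures, 34.9, 15.4, 4.1, 2.78, 3.47 and 11.7 RPKM in Th1 cultures and 36.8, 10.9, 3.87, 3.11, 4.88 and 11.3 RPKM in Th2 cultures. Its log2 difference from rest was -4.29 ± 0.20 and -3.08 ± 0.20 at 12 and 24 h (limma, adjusted p = 2.95e-11 and 1.47e-09). The rise from 12 to 24 h, 1.22 ± 0.18, left all 3 cultures far under the resting libraries.

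Spindle assembly and cytokinesis genes fell furthest as a group, with a median of -2.97 at 12 h, and 5 of 7 were still called lower at 24 h. All 7 were lower at 12 h and 4 rose at least 2-fold. Racgap1, the GTPase-activating subunit of centralspindlin, had 30.3 and 29.7 RPKM at rest, then 6.02, 7.05 and 5.78 RPKM in Th0, Th1 and Th2 cultures at 12 h and 18.3, 17.2 and 16.4 RPKM at 24 h. Tpx2, which activates Aurora A on the spindle, had 20.4 and 18 RPKM at rest, then 1.5, 2.27 and 1.27 RPKM at 12 h and 6.58, 8.56 and 6.86 RPKM at 24 h. In both, the cultures at 24 h lay above those at 12 h and below rest. Ect2, the exchange factor that sets the cleavage furrow, had 13.7 ± 0.181 RPKM at rest, 1.62 ± 0.288 RPKM at 12 h and 7.23 ± 2.01 RPKM at 24 h. Prc1, a microtubule bundler of the midzone, had 24.4 ± 1.16 RPKM at rest, 3.22 ± 0.497 RPKM at 12 h and 6.33 ± 0.768 RPKM at 24 h. Nusap1, a microtubule-binding protein, had 23 ± 0.176 RPKM at rest, 1.44 ± 0.245 RPKM at 12 h and 3.39 ± 0.846 RPKM at 24 h and Hmmr, a spindle protein and hyaluronan receptor, 19.8 ± 0.241 RPKM at rest, 2.09 ± 0.153 RPKM at 12 h and 3.64 ± 0.838 RPKM at 24 h. Anln, the furrow protein anillin, had 6.4 ± 0.0346 RPKM at rest, 0.268 ± 0.00567 RPKM at 12 h and 1.26 ± 0.175 RPKM at 24 h. Its Th2 value at 12 h rested on 26 reads (0.274 RPKM, 95% Poisson interval 0.179 to 0.401).

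Other genes of mitosis, a second list of 105 symbols of which 100 were in the table and 98 passed the filter, moved less as a whole. At 12 h, 2 were higher and 51 lower than at rest (median -1.09), where 10.7% and 16.4% of all genes were. At 24 h 6 were higher and 16 lower (median -0.10), against 12.7% and 17.4% of all genes. The lower count at 24 h was near the share of all genes. From 12 to 24 h, 49 rose and 1 fell (median 0.98), against 3.12% and 1.93% of all genes. From 4 to 24 h 15 rose, near the 13.0% of all genes, and 3 fell (13.2%). The largest rises from 4 to 24 h were Trip13 (2.70 ± 0.25), a checkpoint-protein remodeller, Cep55 (2.18 ± 0.21), an abscission protein, and Wee1 (1.88 ± 0.35), the kinase that holds CDK1 inactive. Trip13 had 3.01 and 2.59 RPKM at rest, then 2.11, 2.22 and 2.67 RPKM in Th0, Th1 and Th2 cultures at 12 h and 12, 15.9 and 17.2 RPKM at 24 h, so that it rose with little of the earlier fall. The largest falls were Depdc1b (-2.32 ± 0.21), Cdca3 (-1.67 ± 0.27) and Depdc1a (-1.03 ± 0.27).

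Regulators of the mitotic programme, 16 genes of the DREAM and MuvB complexes, their partners B-Myb, FoxM1 and NF-Y, and p53 with p21, were mostly not called. At 12 h 1 was higher and 3 lower than at rest, where 10.7% and 16.4% of all genes were. From 12 to 24 h 1 rose (Mybl2) and 1 fell (Cdkn1a), against 3.12% and 1.93% of all genes. Counts this small do not set the list apart from all genes. Mybl2, which encodes B-Myb, had 23.8 and 20.1 RPKM at rest, then 2.82, 2.3 and 2.48 RPKM in Th0, Th1 and Th2 cultures at 12 h and 13.1, 15.5 and 17.6 RPKM at 24 h, a rise of 2.38 ± 0.16 on the log2 scale (adjusted p = 3.78e-08, limma). Foxm1 had 11.7 and 12.6 RPKM at rest, then 3.06, 2.82 and 3.61 RPKM at 12 h and 5.43, 6.18 and 6.5 RPKM at 24 h. Cdkn1a, the CDK inhibitor p21, went the other way, with 1.2 and 2.37 RPKM at rest, then 23.9, 49.1 and 48 RPKM at 8 h, 36.1, 47 and 43.5 RPKM at 12 h and 14.6, 17.8 and 11.5 RPKM at 24 h. From 4 to 24 h the largest rises were Tfdp1 (2.26 ± 0.23), Mybl2 (0.51 ± 0.16) and E2f4 (0.48 ± 0.16). The lowest differences were Rbl2 (-1.12 ± 0.22), Cdkn1a (-0.60 ± 0.28) and Lin54 (-0.60 ± 0.15).

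Skewing conditions were compared over the 6 time points with time as a block, in 49 genes of the list, since Cdc25c fell under the filter. Each condition had 1 library per time point, and the time points stood in for replicates. The p-values therefore do not measure the spread between repeated series of cultures. No gene of the list differed 2-fold between conditions by limma, where 2.01% of all 10737 genes did between Th2 and Th0 cultures, 1.96% between Th2 and Th1 and 0.494% between Th1 and Th0. At any fold, 3 were higher in Th2 than in Th0 cultures (12.9% of all genes) and 3 lower (16.7%). Under median-of-ratios scaling the all-gene counts were 1917 higher and 1512 lower, against 1390 and 1788, and the list kept 3 and 3. Against Th1 cultures, 1 was higher in Th2 (3.49%) and 1 lower (8.71%), and between Th1 and Th0 cultures none differed (2.27%). At an unadjusted p under 0.05 there were 7, 9 and 1 genes in the 3 comparisons. Each of these called shares of the list was under that of all genes. With 12 to 24 h alone this was not so for the higher genes: of 47 tested, 9 were higher and 3 lower in Th2 than in Th0 cultures (5.91% and 11.2% of all genes), and 5 were higher and 1 lower in Th2 than in Th1 (3.99% and 8.42%).

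Cdc25b was lower in Th2 than in Th0 cultures at each of the 6 times, by -0.72 ± 0.11 on the log2 scale (SE, adjusted p = 0.000207, limma), and lower than in Th1 cultures by -0.47 ± 0.11 (adjusted p = 0.00811). At 4 h it stood at 52.5, 43.4 and 33.5 RPKM in Th0, Th1 and Th2 cultures. Cenpa differed by -0.47 ± 0.11 between Th2 and Th0 (adjusted p = 0.00464) and Pttg1 by -0.47 ± 0.12 (adjusted p = 0.00973). For Pttg1 the Th2 culture was the lowest at 4 to 20 h, as at 8 h with 31.3, 23.6 and 15.9 RPKM, and the highest at 24 h. The genes higher in Th2 than in Th0 were Plk4 (0.29 ± 0.08, adjusted p = 0.0142), Bub3 (0.24 ± 0.08, adjusted p = 0.0368) and Cdc20 (0.28 ± 0.10, adjusted p = 0.0479). Aurka was higher in Th2 than in Th1 cultures (0.44 ± 0.13, adjusted p = 0.0389), with 3.6, 1.77 and 4.92 RPKM at 12 h. The Plk4 call was lost without the 20 h cultures (adjusted p = 0.0646, limma) and the Pttg1 call without the 12 h cultures (adjusted p = 0.0508). The Bub3 and Cdc20 calls in Th2 against Th0 and the Aurka call in Th2 against Th1 were lost under several alternatives, with adjusted p up to 0.127, 0.164 and 0.156. All of these comparisons share cultures.

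The direction of the differences from the Th0 culture turned with time. At 8 h, 44 of the 50 genes were lower in the Th2 than in the Th0 culture (median -0.61). Over all genes the median was 0.00 and 50.3% were higher. All 14 red-cell genes were lower there too (median -0.90), and the part of red-cell precursors in this difference was not tested. At 16 h, 43 genes were higher in the Th2 culture (median 0.31), at 20 h 45 (median 0.34) and at 24 h 41 (median 0.29), where 51.1%, 49.6% and 41.0% of all genes were. The red-cell medians at those times were -0.46, -0.02 and 0.03. The Th1 culture was also lower than the Th0 culture at 8 h and higher at 24 h, with little difference at 16 and 20 h. At 8 h, 42 genes were lower (median -0.29), where 49.3% of all genes were higher. All 14 red-cell genes were lower there as well (median -0.42), and their part was not tested here either. At 16 h 26 genes were higher (median 0.00) and at 20 h 31 (median 0.03), where 44.3% and 47.3% of all genes were. At 24 h, 40 were higher (median 0.12, 55.1% of all genes). Set against the Th1 culture, the Th2 culture was lower in 44 genes at 8 h, and in all 14 red-cell genes (median -0.48). The Th2 culture was higher in 39 mitosis genes at 16 h, 41 at 20 h and 32 at 24 h. The shares of all genes that were higher at 8, 16, 20 and 24 h were 51.5%, 53.8%, 52.1% and 38.5%. Each of these values compares 1 library with 1 library, and the pairs share libraries.

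**Figure D5:**
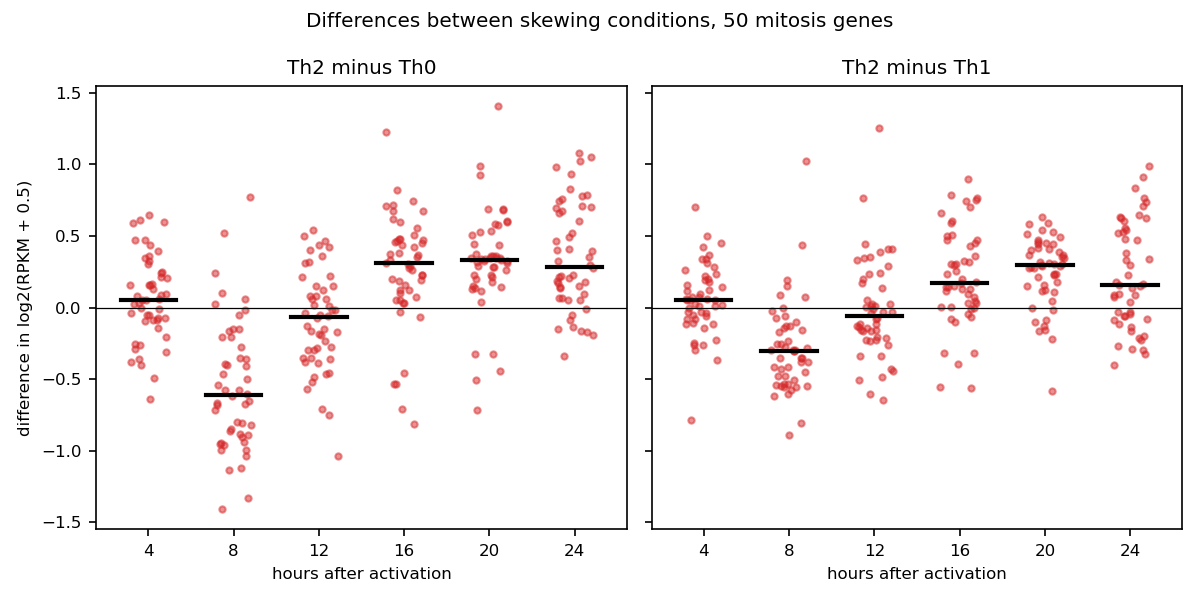
Difference between the Th2 and the Th0 culture (left) and the Th2 and the Th1 culture (right) in log2(RPKM + 0.5) at each time; points are the 50 genes, spread sideways for sight, and bars are their medians. Against Th0 the median is -0.61 at 8 h and 0.31, 0.34 and 0.29 at 16, 20 and 24 h.

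The change with time was then compared as a slope, in log2 units per hour. From Th0 to Th2 it was larger in 47 of 49 genes, with a median difference of 0.03 per hour against 0.00 over all genes. The 49 slopes come from the same libraries, so this is not a count of independent results. The slope difference passed an adjusted p under 0.05 in 1 gene, Mad2l1 (higher in 1.1% and lower in 4.05% of all genes). In 17 genes the unadjusted p was under 0.05. The Mad2l1 slopes differed by 0.06 ± 0.01 per hour (adjusted p = 0.0349, limma). Without the 4 h cultures, 23 of 47 genes had a higher slope in Th2 than in Th0 cultures and none a lower one, where 10.5% of all genes were higher and 18.02% lower, and without the 8, 12, 16, 20 or 24 h cultures none did. Between Th2 and Th1 cultures no gene of the list differed in slope (1.09% of all genes; 7 of the list at an unadjusted p under 0.05), nor between Th1 and Th0 cultures (0.0279%; 1).

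Decay of the transcripts was read from the actinomycin libraries, 1 at each time. The starting library stood above all 3 cultures at 16 h in 36 of the 44 genes that averaged 1 RPKM or more, where 27.8% of all genes did, and below all 3 in 2 (39.3%). The median ratio to the mean of the 3 cultures was 1.73. Red-cell markers summed to 1155 to 2530 RPKM and B-cell markers to 4.09 to 5.79 RPKM in these 4 libraries, the latter under the 20.7 to 36.7 RPKM of the 16 h cultures; the part of this in the levels was not tested.

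A slope was fitted over 0, 1, 2 and 4 h in 48 genes of the list, since Cdc25c and Anln were under the filter. RPKM is relative to each library's total, so that a slope says how a transcript changed against the rest and not its absolute half-life. In 5 genes the slope was below 0 at an adjusted p under 0.05 (12.0% of all 10571 genes), and in none above (8.95%). The median slope was -0.02 per hour, against 0.00 over all genes. Bub3 had 79.3, 64.1, 62.3 and 31.1 RPKM at 0, 1, 2 and 4 h, a slope of -0.33 ± 0.06 log2 units per hour (adjusted p = 1.40e-06, limma). Cdk1 had 13, 11, 9.61 and 6.61 RPKM, with -0.23 ± 0.07 (adjusted p = 0.0104), and Aurka 5.05, 4.11, 2.65 and 2.15 RPKM, with -0.28 ± 0.09 (adjusted p = 0.0124). Both went down at each step. Top2a had 37, 26.7, 32.1 and 17.7 RPKM, with -0.23 ± 0.06 (adjusted p = 0.00173), and Smc2 26.2, 18.8, 24.6 and 12.6 RPKM, with -0.23 ± 0.06 (adjusted p = 0.00415). Both of these dipped at 1 h, came up at 2 h and were lowest at 4 h. Without the 4 h library none of the 5 was called. Of the other genes, Mki67 had 10.6, 7.28, 10.4 and 10.2 RPKM and Cenpa 17.3, 16.3, 17.9 and 22.6 RPKM, slopes of 0.03 ± 0.07 and 0.11 ± 0.06 (adjusted p = 0.795 and 0.226). Among the other mitosis genes, 4 had a slope above 0 and 4 below of 91 tested, and among the 16 regulators 1 and 1.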

How the data were processed

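RNA of 24 libraries was measured, 2 of resting CD4 T cells, 18 of Th0, Th1 and Th2 cultures and 4 after actinomycin. The authors deposited 1 table of RPKM values, reads scaled by transcript length and by each library's mapped reads; BWA and the build GRCm38 are named in the submitters' processing notes, and counting and strand are not given in the sources used here. Depth was 17512385 to 33017133 mapped reads per library, read from the table's smallest steps; intervals from recovered reads (tolerance 0.02) cover counting error only. A row without a gene name was left out.

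log2(RPKM + 0.5) of genes averaging 1 RPKM or more was fitted in limma 3.58.1 (R 4.3.3) with a trend on mean level, and p-values were adjusted over all genes by Benjamini-Hochberg. Calls needed an adjusted p under 0.05 and at least 2-fold (conditions also at any fold, slopes at any size). Time points were compared over all 20 time-course libraries, conditions and slopes over the 18 cultures, blocked by time point, and actinomycin over 4. No label says that the 2 resting libraries came from separate animals, so p-values measure only the spread between these libraries, which may be technical. Scripts were tested on simulated data. Members and lists were chosen with earlier results of these data known.

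Genes were named by rule: all 50; values by library for the 2 per role with the highest mean at 24 h, those without a 2-fold rise from rest and those past a threshold between conditions or after actinomycin; and the 3 largest rises and falls from 4 to 24 h per pathway list. As no gene rose 2-fold from rest, this took in all 50, and most were given as means at rest, 12 h and 24 h. Overlaps come from GENCODE M21 and promoters from RefSeq on GRCm38.p6. Alternatives were 3 scalings, 2 pseudocounts (0.1 and 1), 2 filters (none and 5 RPKM), no intensity trend, fewer libraries and leaving libraries out. The comparison of 24 h with 12 h, RPKM without haemoglobin genes and the fit without the Th2 24 h library were added after seeing the data.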

Additional observations from a re-analysis of the deposited data

Results flagged for a closer look

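The time slope of Mad2l1 differed between Th2 and Th0 cultures by 0.0563 log2 units per hour in an interaction test over the 18 cultures (adjusted p = 0.0349, limma), with higher values in the Th2 culture at 16, 20 and 24 h (44.8 against 25.9 RPKM at 24 h) and lower ones at 4, 8 and 12 h. The difference lay between 0.0430 and 0.0855 when a time point or the Th2 24 h library was left out, and the adjusted p was between 0.00271 and 0.212 over all alternatives.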

How the results depend on the processing

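Of 650 alternatives for single genes, 591 kept the direction and the side of the threshold, 52 were weaker, 6 stronger and 1 reversed: Pttg1 from 12 to 24 h was 0.13 without the Th0 cultures (range -0.33 to 0.13 over cultures left out). Of 269 alternatives for counts, 237 stayed within 1.5 times. A filter at a mean of 5 RPKM leaves 35 of the 50 genes and called 10 at 4 h, 29 at 16 h, 25 at 20 h and 21 from 12 to 24 h. With only 12 to 24 h, 12 genes of 47 differed at any fold between Th2 and Th0 cultures (17.1% of all genes) and 6 between Th2 and Th1 (12.4%). Without a filter, 1 gene differed between Th2 and Th1, 1 had a slope after actinomycin and 0 another time slope in Th2 than in Th0 cultures; that last count was also 0 under median-of-ratios scaling. Leaving out libraries gave 13 to 23 genes at 4 h, 3 to 11 at any fold between Th2 and Th0 and 1 to 5 between Th2 and Th1. It gave 0 to 23 genes with another slope between Th2 and Th0 (23 without the 4 h cultures, where 28.5% of all genes had one), 0 to 3 between Th2 and Th1, and 0 to 6 after actinomycin. The cause was not tested. No paired analysis was possible because only the resting libraries carry replicate numbers; the fits between conditions already hold the time point as a block. Each culture was sequenced once. Low values limit Anln, Cdc25c, Espl1 and Ttk at 12 h, with means of 0.268, 0.28, 0.379 and 0.458 RPKM. Cdc25c was at 0.096 RPKM in the Th0 culture at 20 h.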
